A study of Homo sapiens with 24 samples.

Results

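The change in the RNA response to DDX3X knockdown between day 3 and day 14 was measured in 8 of the 24 samples of the series: 2 RNA libraries for each of 2 guides on each of 2 days. The cells were K562, an established human chronic myeloid leukaemia line with erythroid features, carrying CRISPR interference, in which a catalytically dead Cas9 fused to a repressor is brought to a promoter by a guide RNA. The guide sgDDX3 targets DDX3X, and the guide sgGal4 is the control, since the yeast gene GAL4 has no counterpart in these cells. Knockdown was induced with 50 ng/ml doxycycline, per the labels for every sample, and it is not stated whether the day 0 cells had already received it. The 4 groups were sgDDX3 at day 3, sgDDX3 at day 14, sgGal4 at day 3 and sgGal4 at day 14. The 4 RNA libraries of day 0 and the ribosome footprint libraries of the same groups served as further readouts.

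DDX3X encodes an RNA helicase of the DEAD-box family that helps ribosomes start on messages with structured 5′ leaders. It is X-linked and has a Y-linked relative, and it is frequently mutated in cancers of blood and brain. CRISPR interference blocks transcription of the target without cutting it, so cells in which the repressor is lost or silenced can express the gene again. A population of cells can therefore show an early response, a lasting response and a later one, and RNA from a bulk culture reads the average over its cells. Fewer cells with a response and a smaller response per cell cannot be told apart in such RNA.

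The quantity tested for each gene was the guide difference at day 14, sgDDX3 minus sgGal4, minus the same difference at day 3, on the log2 scale and called the interaction below. All 18287 genes with enough counts were tested with edgeR's quasi-likelihood test, and a gene passed at a Benjamini-Hochberg adjusted p under 0.05. The interaction passed for 30 genes (0.164% of those tested), 15 with a positive and 15 with a negative value, of which 23 averaged at least 10 CPM (counts per 1000000 of the scaled library) over the 8 libraries. The guide difference itself passed for 2574 genes at day 3 (14.1%) and for 2674 genes at day 14 (14.6%), and for 1 gene at day 0 (0.00547%), which was none of the 30. An unadjusted interaction p under 0.05 was found for 1447 genes (7.91%). Without sgGal4 replicate 1 or 2 of the same day, 1383 and 1342 genes passed at day 3 and 1556 and 1076 at day 14. The labels give replicate numbers and no separate cultures, so every p-value measures the spread between these libraries, which may be technical.

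Genes were sorted by the 3 tests together. A gene was called persistent where it passed on both days in 1 direction and the interaction did not pass, which held for 1403 genes (892 higher, 4.88% of those tested, and 511 lower, 2.79%). It was called fading where it passed at day 3 and the interaction moved it back towards or past zero without a day 14 call of the other sign (7 genes), late where it passed at day 14 and not at day 3 with a passing interaction (15 genes), growing where it passed on both days and was larger at day 14 (3 genes), and reversed where both days passed with opposite signs (5 genes). A further 1155 genes passed at day 3 alone and 1245 at day 14 alone without a passing interaction, so a change between the days was not shown for them. One gene, EGR3, passed on both days with opposite signs while its interaction did not pass. The genes nearest the threshold were FLT1, with an interaction of -0.78 and an adjusted p of 0.0478, just inside it, and SELPLG, with 0.79 and 0.0515, just outside it. Of the 30 interaction calls, 7 held under all 13 alternative settings, among them DDX3X, MCM2, PEG10, EIF5B, LMO4 and RNA5-8SN1. Without sgDDX3 replicate 1 of day 3, 10 of the 30 were kept. The same number was kept without sgGal4 replicate 1 of day 3, 11 without sgGal4 replicate 1 of day 14, 15 without sgGal4 replicate 2 of day 14, and 19 to 30 without any other single library. Without sgDDX3 replicate 2 of day 14, 339 genes passed the interaction, of which 64 were fading and 218 late.

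Where sgDDX3 binds is not given in the sources used here. The promoter windows of 4 genes whose RNA moved between the days are shown, 1 of DDX3X and 3 of cell-cycle genes with a positive interaction. They are RefSeq windows on GRCh38.p14, 250 bases before to 50 bases after the transcript start, read 5′ to 3′ on the gene's strand: chrX:41333058-41333357 on the plus strand for DDX3X, the most upstream of 3 listed starts, chr17:40417847-40418146 on the minus strand for TOP2A, chr10:128126374-128126673 on the minus strand for MKI67 and chr3:127598161-127598460 on the plus strand for MCM2. Capitals mark CCAAT, the box bound by the factor NF-Y, and the E2F-type letters TTTGGCGC and TTTCGCGC, each searched on both strands.

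DDX3X: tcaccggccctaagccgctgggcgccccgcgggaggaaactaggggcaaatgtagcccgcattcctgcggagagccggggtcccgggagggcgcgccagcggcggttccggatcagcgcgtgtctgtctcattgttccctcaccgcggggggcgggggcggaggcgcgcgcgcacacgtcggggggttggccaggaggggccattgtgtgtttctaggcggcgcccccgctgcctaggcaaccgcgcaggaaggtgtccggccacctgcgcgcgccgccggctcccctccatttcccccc

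TOP2A: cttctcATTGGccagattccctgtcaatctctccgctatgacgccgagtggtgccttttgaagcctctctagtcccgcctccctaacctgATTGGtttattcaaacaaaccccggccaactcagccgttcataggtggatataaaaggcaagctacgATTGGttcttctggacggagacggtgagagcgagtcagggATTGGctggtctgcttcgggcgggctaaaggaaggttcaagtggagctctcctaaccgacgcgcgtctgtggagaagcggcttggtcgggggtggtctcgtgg

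MKI67: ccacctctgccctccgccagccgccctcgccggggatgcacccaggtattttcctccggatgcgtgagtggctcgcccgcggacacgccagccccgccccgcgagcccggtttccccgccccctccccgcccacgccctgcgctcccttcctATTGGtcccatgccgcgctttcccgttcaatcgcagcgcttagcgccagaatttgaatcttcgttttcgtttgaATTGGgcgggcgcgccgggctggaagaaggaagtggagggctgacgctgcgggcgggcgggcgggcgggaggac

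MCM2: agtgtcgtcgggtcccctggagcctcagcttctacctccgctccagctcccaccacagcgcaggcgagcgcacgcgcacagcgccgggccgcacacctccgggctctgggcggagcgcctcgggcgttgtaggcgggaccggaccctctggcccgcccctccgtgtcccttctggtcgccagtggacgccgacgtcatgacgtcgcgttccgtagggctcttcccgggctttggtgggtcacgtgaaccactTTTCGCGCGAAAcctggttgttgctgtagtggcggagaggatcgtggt

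TOP2A held 4 CCAAT boxes and MKI67 held 2, all 6 on the reverse strand and so printed as ATTGG. MCM2 held no CCAAT box and held the palindromic run TTTCGCGCGAAA, in which 2 overlapping matches of TTTCGCGC on opposite strands cover 12 bases. The DDX3X window held neither motif. Of all 35116 promoter windows, 34.6% held CCAAT and 1.15% held at least 1 of the E2F-type motifs. Counted by gene, CCAAT was found in 26 of 31 mitosis genes with a window (83.9%) against 39.7% of all genes, and an E2F-type motif in 15 of 45 replication and S-phase genes (33.3%) against 1.40% of all genes. CCAAT was also found in 26 of the 45 replication and S-phase genes (57.8%), and an E2F-type motif in 2 of the 31 mitosis genes (6.45%). These are matches of letters, and occupancy was not measured here.

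DDX3X RNA, the knockdown target, was strongly reduced at day 3 and much less so at day 14. It stood at 39.0 and 33.7 CPM in sgDDX3 libraries at day 3, against 185 and 174 CPM in sgGal4 libraries, which is 20.2% of the control mean. At day 14 it stood at 134 and 102 CPM in sgDDX3 libraries, against 201 and 187 CPM in sgGal4 libraries, or 60.6% of the control mean. At day 0 it was at 175 and 185 CPM in sgDDX3 libraries and 215 and 203 CPM in sgGal4 libraries, a difference that did not pass (adjusted p = 0.999). The guides' values did not overlap on any of the 3 days, and the 2 sgDDX3 libraries of day 14 differed more from each other than those of day 3.

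The guide difference of DDX3X was -2.29 ± 0.11 log2 at day 3 and -0.72 ± 0.10 at day 14 (± SE), and the interaction was 1.57 ± 0.14 with a 95% interval of 1.27 to 1.87 and an adjusted p of 7.2e-06. The change lay in the sgDDX3 cells, where DDX3X differed by 1.68 log2 between day 14 and day 3, while the corresponding change in sgGal4 cells was 0.11 (adjusted p = 0.71). Footprints on DDX3X, counted in separate libraries, followed the RNA, with guide differences of -2.04 at day 3 and -0.61 at day 14 and an interaction of 1.43 (adjusted p = 0.0058). The responses below were read in cells with much less DDX3X RNA at day 3 than at day 14.

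Of the genes near DDX3X on the X chromosome, 5 including DDX3X itself were tested. USP9X, a deubiquitinase gene, and CASK, a scaffold kinase gene, were higher with sgDDX3 on both days, by 0.37 and 0.26 log2 at day 3 and day 14 for USP9X and by 0.42 and 0.75 for CASK. MID1IP1 was lower, by -0.34 and -0.37 log2. None of these 3 had a passing interaction, and all 3 were persistent. The day 3 call of CASK was lost in 7 of the 13 alternative settings, each single library of day 3 among them, and the day 14 call of USP9X in 5.

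**Figure D1:**
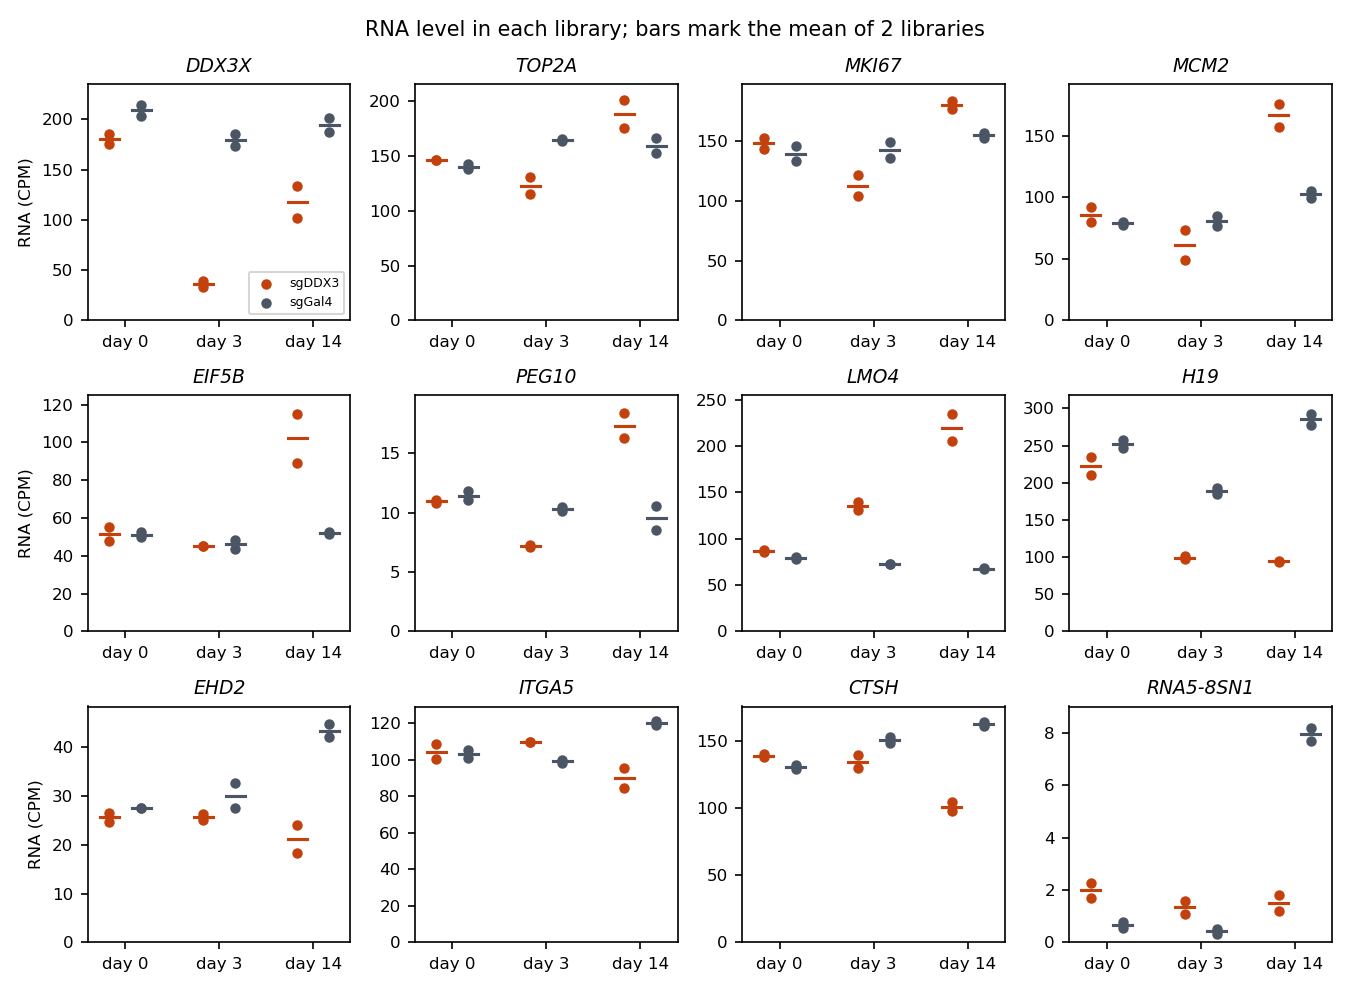
RNA level in CPM (y axis, from 0) of 12 genes past the interaction threshold in every RNA library, by day (x axis), sgDDX3 libraries in orange to the left of sgGal4 libraries in grey, with bars at the mean of 2 libraries. DDX3X falls to 39.0 and 33.7 CPM in sgDDX3 libraries at day 3 and stands at 134 and 102 CPM at day 14; RNA5-8SN1 rises in sgGal4 libraries at day 14.

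Besides DDX3X, the fading genes included 2 markers of dividing cells, TOP2A and MKI67, and the long non-coding RNA PCAT14. TOP2A, the topoisomerase that untangles chromosomes before mitosis, was at 115 and 131 CPM in sgDDX3 libraries and 166 and 164 CPM in sgGal4 libraries at day 3, and at 176 and 201 CPM with sgDDX3 and 153 and 167 CPM with sgGal4 at day 14. MKI67, whose protein Ki-67 coats mitotic chromosomes, was at 104 and 121 CPM with sgDDX3 and 149 and 136 CPM with sgGal4 at day 3, and at 184 and 176 CPM with sgDDX3 and 157 and 153 CPM with sgGal4 at day 14. Both genes were lower with sgDDX3 at day 3 with no overlap, and at day 14 all sgDDX3 values lay above all sgGal4 values.

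The guide difference of TOP2A was -0.43 log2 at day 3 (adjusted p = 0.00086) and 0.23 at day 14 (adjusted p = 0.054), and its interaction was 0.67 ± 0.11 (adjusted p = 0.01). For MKI67 it was -0.35 at day 3 and 0.22 at day 14 (adjusted p = 0.079), with an interaction of 0.57 ± 0.12 (adjusted p = 0.0478). The interaction call held in 9 of the 13 alternative settings for TOP2A and in 6 for MKI67. The fall at day 3 was not seen in footprints, where the guide difference at day 3 was 0.11 for each gene and did not pass, while at day 14 footprints were higher by 0.66 for TOP2A and 0.95 for MKI67 (adjusted p = 0.038 and 0.0087).

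PCAT14, a long non-coding RNA known from prostate cancer, was at 24.4 and 17.6 CPM in sgDDX3 libraries against 45.1 and 41.3 CPM in sgGal4 libraries at day 3, and at 36.0 and 37.2 CPM against 40.0 and 43.8 CPM at day 14. Its guide difference was -1.0 log2 at day 3 and -0.21 at day 14, where it did not pass. PLXNA1, a receptor for semaphorins, was the other kind of fading gene, since the control moved. It was at 245 and 242 CPM with sgDDX3 and 187 and 174 CPM with sgGal4 at day 3, and at 214 and 224 CPM with sgDDX3 and 236 and 239 CPM with sgGal4 at day 14. Between the days PLXNA1 rose by 0.40 log2 in sgGal4 cells (adjusted p = 0.0038), while its change in sgDDX3 cells was -0.15 (adjusted p = 0.23). In the fit with all libraries the edgeR interaction had an adjusted p of 0.041 for PCAT14 and 0.019 for PLXNA1. That call held in 6 of the 13 alternative settings for PCAT14 and in 7 for PLXNA1.

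The remaining fading genes were of low level. PDGFB, a growth factor gene, was at 9.91 and 10.1 CPM with sgDDX3 and 1.53 and 2.33 CPM with sgGal4 at day 3, and at 6.2 and 6.15 CPM with sgDDX3 and 3.27 and 4.01 CPM with sgGal4 at day 14. Its guide difference was 2.50 log2 at day 3 and 0.72 at day 14. At day 0 PDGFB was at 0.0837 and 0 CPM with sgDDX3 and at 0 and 0.213 CPM with sgGal4. OR2W6P, an olfactory receptor pseudogene, stayed at 2.50 CPM or below in the 8 libraries. Its interaction was 2.45, and it was the one interaction gene not tested in footprints. The interaction call held in 8 of the 13 alternative settings for PDGFB and in 7 for OR2W6P.

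MCM2 and PEG10 were lower with sgDDX3 at day 3 and higher at day 14, and both days passed in the fit with all libraries. MCM2 is a subunit of the helicase that opens DNA at replication origins. It was at 49.2 and 73.7 CPM in sgDDX3 libraries and 76.4 and 84.9 CPM in sgGal4 libraries at day 3, and at 176 and 157 CPM with sgDDX3 and 99.3 and 105 CPM with sgGal4 at day 14. The 2 sgDDX3 libraries of day 3 lay far apart, yet no guide values overlapped on either day. Its guide difference was -0.42 ± 0.12 log2 at day 3 (adjusted p = 0.027) and 0.70 ± 0.12 at day 14, and the interaction of 1.12 passed (adjusted p = 0.0035). The interaction of MCM2 passed in all 13 alternative settings, but its day 3 call was lost in 5, with differences of -0.70 to -0.12. The lost settings were DESeq2, the 2 days alone and the leaving out of sgDDX3 replicate 1, sgGal4 replicate 1 or sgGal4 replicate 2 of day 3. In footprints MCM2 differed by -0.01 at day 3 and 1.69 at day 14 (adjusted p = 0.0022 at day 14), with an interaction of 1.70 (adjusted p = 0.077).

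PEG10, an imprinted gene derived from a retrotransposon, was at 7.12 and 7.29 CPM with sgDDX3 and 10.5 and 10.2 CPM with sgGal4 at day 3, and at 16.3 and 18.4 CPM with sgDDX3 and 8.56 and 10.6 CPM with sgGal4 at day 14. The sgDDX3 libraries were below all controls at day 3 and above all of them at day 14. Its guide differences were -0.53 and 0.81 log2 and its interaction was 1.34 ± 0.19 (adjusted p = 0.0017). At day 3 PEG10 did not pass when replicate 1 of sgDDX3 or of sgGal4 from that day was left out. Footprints on PEG10 differed by -0.20 at day 3, which did not pass, and by 0.84 at day 14, which did. CLIP2, a microtubule-linker gene, went the opposite way, at 46.1 and 47.5 CPM with sgDDX3 and 36.3 and 33.2 CPM with sgGal4 at day 3, and at 43.8 and 40.9 CPM with sgDDX3 and 50.3 and 53.3 CPM with sgGal4 at day 14. The values of CLIP2 in sgDDX3 cells changed by -0.14 log2 between the days, and those in sgGal4 cells by 0.57 (adjusted p = 0.001). CLIP2 kept both calls and its interaction in 4 of the 13 alternative settings.

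Of the 6 late genes that were higher with sgDDX3 at day 14, 5 are described here and 1 is left out of naming. EIF5B, the factor that joins the ribosomal subunits at the end of translation initiation, was at 45.2 and 45.0 CPM in sgDDX3 libraries and 48.4 and 43.6 CPM in sgGal4 libraries at day 3, where the groups overlapped. At day 14 it was at 115 and 89.3 CPM with sgDDX3 and 52.6 and 51.6 CPM with sgGal4. The guide difference was -0.04 ± 0.10 log2 at day 3 and 0.98 ± 0.10 at day 14, and the interaction was 1.02 ± 0.15 (adjusted p = 0.0018). Footprints on EIF5B were higher by 1.90 log2 at day 14 (adjusted p = 0.00017) and by 0.36 at day 3, which did not pass, and their interaction of 1.53 had an adjusted p of 0.052.

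SUPT6H, a histone chaperone that travels with RNA polymerase II, was at 81.7 and 87.4 CPM with sgDDX3 and 88.7 and 76.4 CPM with sgGal4 at day 3, and at 162 and 144 CPM with sgDDX3 and 97.1 and 95.8 CPM with sgGal4 at day 14. Its RNA interaction was 0.65, and its footprint interaction of 1.35 also passed (adjusted p = 0.048), as only that of DDX3X did besides among the RNA interaction genes. CKAP5, a microtubule polymerase of the spindle, was at 99.2 and 119 CPM with sgDDX3 and 101 and 105 CPM with sgGal4 at day 3, and at 193 and 208 CPM with sgDDX3 and 114 and 119.7 CPM with sgGal4 at day 14. ATAD2, a bromodomain ATPase gene, was at 59.6 and 55.6 CPM with sgDDX3 and 67.1 and 67.2 CPM with sgGal4 at day 3, and at 95.1 and 98.7 CPM with sgDDX3 and 62.7 and 71.9 CPM with sgGal4 at day 14. SNHG12, a host transcript of small nucleolar RNAs, was at 18 and 25.7 CPM with sgDDX3 and 17.2 and 19 CPM with sgGal4 at day 3, and at 51.2 and 37.4 CPM with sgDDX3 and 17.6 and 16.5 CPM with sgGal4 at day 14. For SUPT6H, CKAP5, ATAD2 and SNHG12 the day 14 values of the 2 guides did not overlap. Those libraries also gave the day 14 calls, so the lack of overlap is no separate support for these genes. Their footprints at day 14 were higher by 1.85, 1.35, 1.15 and 1.09 log2, in that order, and each passed there. The RNA interaction call held in 8 of the 13 alternative settings for SUPT6H, 10 for CKAP5, 12 for ATAD2 and 7 for SNHG12.

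The genes that appeared late and lower included EHD2, whose RNA rose with time in control cells. EHD2, a membrane-remodelling ATPase gene, was at 25.2 and 26.2 CPM with sgDDX3 and 32.6 and 27.5 CPM with sgGal4 at day 3, and at 18.4 and 24.1 CPM with sgDDX3 and 44.7 and 42.1 CPM with sgGal4 at day 14. EHD2 changed between the days by -0.28 log2 in sgDDX3 cells (adjusted p = 0.2) and rose by 0.50 in sgGal4 cells (adjusted p = 0.016). FLT1, a receptor for vascular endothelial growth factor, was at 28.9 and 29.0 CPM with sgDDX3 and 28.8 and 25.9 CPM with sgGal4 at day 3, and at 21.4 and 22.9 CPM with sgDDX3 and 41.9 and 32.4 CPM with sgGal4 at day 14. The footprints of EHD2 and FLT1 were lower with sgDDX3 at day 14 by -0.70 and -0.72 log2, and both passed there.

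ITGA5, the alpha subunit of the fibronectin receptor, was at 110.0 and 109.6 CPM with sgDDX3 and 100.2 and 98.2 CPM with sgGal4 at day 3, and at 84.7 and 95.4 CPM with sgDDX3 and 121 and 119 CPM with sgGal4 at day 14. CTSH, a lysosomal cysteine protease gene, was at 139 and 129 CPM with sgDDX3 and 153 and 148 CPM with sgGal4 at day 3, and at 97.3 and 104 CPM with sgDDX3 and 161 and 164 CPM with sgGal4 at day 14. MEX3B, an RNA-binding protein gene, was at 143 and 138 CPM with sgDDX3 and 133 and 134 CPM with sgGal4 at day 3, and at 106 and 109 CPM with sgDDX3 and 149.9 and 141 CPM with sgGal4 at day 14. Between the days CTSH fell by 0.42 log2 and MEX3B by 0.39 in sgDDX3 cells, and ITGA5 fell by 0.29 (adjusted p = 0.0015, 0.0025 and 0.032). SLC35F3, a putative thiamine transporter gene of low level, was at 5.83 and 3.25 CPM with sgDDX3 and 5.49 and 3.78 CPM with sgGal4 at day 3, and at 1.27 and 0.724 CPM with sgDDX3 and 5.19 and 5.88 CPM with sgGal4 at day 14. The interaction call held in 5 of the 13 alternative settings for EHD2, in 6 each for FLT1, ITGA5, CTSH and MEX3B, and in 10 for SLC35F3.

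Growing effects were found for LMO4, HLA-C and H19 in the fit with all libraries, and held in 13, 3 and 11 of the 13 alternative settings, in that order. LMO4, a transcriptional adaptor of the LIM-only family, was at 131 and 139 CPM in sgDDX3 libraries and 72.8 and 72.3 CPM in sgGal4 libraries at day 3, and at 206 and 234 CPM with sgDDX3 and 68.1 and 67.0 CPM with sgGal4 at day 14. That is 1.86-fold and 3.25-fold, and the interaction of 0.81 ± 0.11 log2 had an adjusted p of 0.001. HLA-C, a class I antigen-presentation gene, was at 16.3 and 17 CPM with sgDDX3 and 13.9 and 11.5 CPM with sgGal4 at day 3, and at 33.4 and 32.8 CPM with sgDDX3 and 14.0 and 14.7 CPM with sgGal4 at day 14. Reads of HLA-C can be shared with other class I genes, so its level is uncertain. The interaction of HLA-C was 0.84 (adjusted p = 0.027) and was lost in 6 settings, and its day 3 difference of 0.35 (adjusted p = 0.046) was lost in 9. H19, an imprinted non-coding RNA of foetal tissues, was at 97.2 and 102 CPM with sgDDX3 and 184 and 193 CPM with sgGal4 at day 3, and at 95.4 and 93.2 CPM with sgDDX3 and 292 and 278 CPM with sgGal4 at day 14. The sgDDX3 level of H19 changed by -0.07 log2 between the days, and the sgGal4 level rose by 0.60 (adjusted p = 2.8e-05).

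Of the 30 genes, 4 were copies of 5.8S ribosomal RNA, which the depletion step is meant to remove. RNA5-8SN1 was at 1.60 and 1.08 CPM with sgDDX3 and 0.524 and 0.322 CPM with sgGal4 at day 3, and at 1.19 and 1.81 CPM with sgDDX3 and 7.69 and 8.18 CPM with sgGal4 at day 14. The 2 sgGal4 libraries of day 14 stood apart from all the others, and the other 3 copies, RNA5-8SN2, RNA5-8SN3 and the one labelled 5_8S_rRNA, had the same pattern with interactions between -3.97 and -3.62. The copies are near-identical in sequence, so their counts are not independent. Reads on 5.8S copies made up 0.000547% and 0.000976% of the counts in the sgDDX3 libraries of day 14, against 0.00412% and 0.00429% in the sgGal4 libraries of that day. Mitochondrial ribosomal RNA made up 0.0203% and 0.0205% in the same sgDDX3 libraries, against 0.0422% and 0.0515% in the same sgGal4 libraries. Whether ribosomal RNA depletion differed between these libraries was not tested.

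Split by guide, the change between day 14 and day 3 was larger in sgDDX3 cells for all 15 genes with a positive interaction, and in sgGal4 cells for 11 of the 15 with a negative one. The change passed in the sgDDX3 arm alone for 18 of the 30 genes, in the sgGal4 arm alone for 8, in both for 2 and in neither for 2. Over all tested genes, 1019 changed between the days with sgDDX3 (5.57%; 568 higher and 451 lower at day 14) and 138 with sgGal4 (0.755%; 119 higher and 19 lower). The 2 arms share no library. Replicates of sgDDX3 differed more from each other than those of sgGal4 on both days. The shared estimate of the spread does not allow for that, so the counts of the arms are not directly comparable. The sgDDX3 count was 140 without its replicate 1 of day 3, 484 without its replicate 1 of day 14 and 2300 without its replicate 2 of day 14, and the sgGal4 count was 332 and 355 without sgDDX3 replicate 1 and 2 of day 14, 65 and 81 without sgGal4 replicate 1 and 2 of day 3, and 77 and 65 without sgGal4 replicate 1 and 2 of day 14. A negative interaction in this list includes genes such as H19, PLXNA1 and CLIP2, whose value moved in the control.

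**Figure D2:**
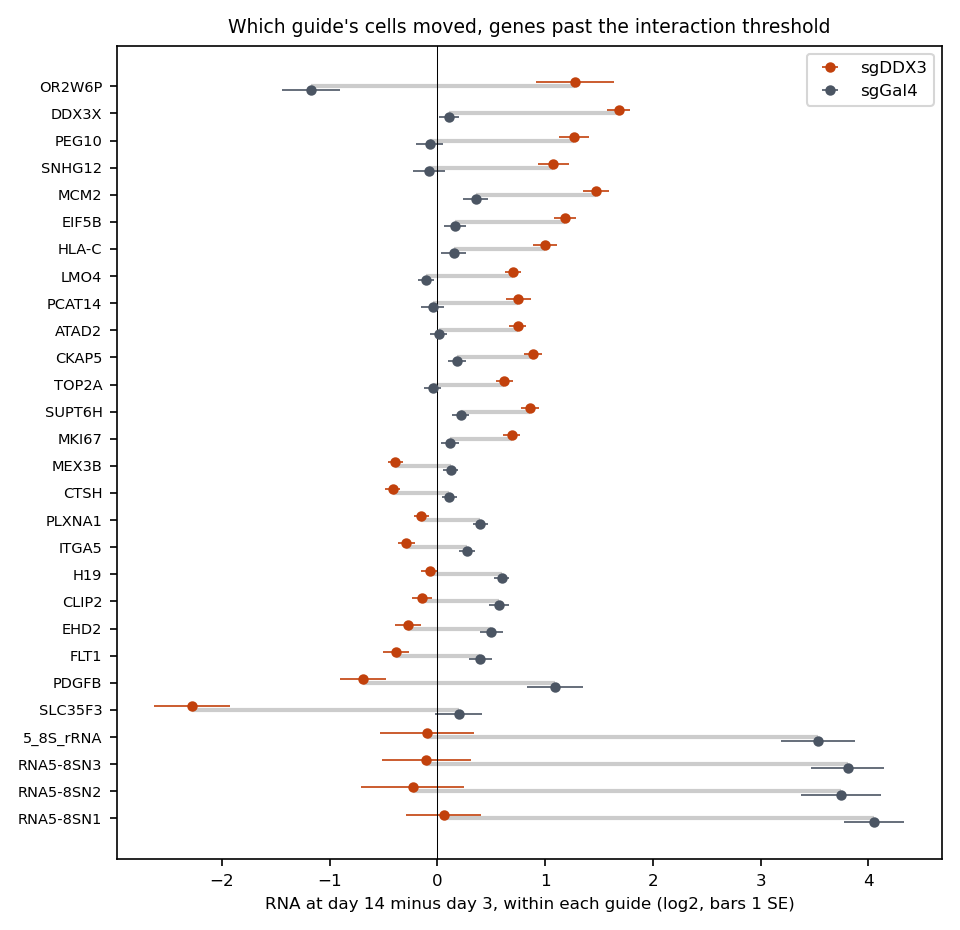
RNA at day 14 minus day 3 within each guide (x axis, log2, bars 1 SE) for the 28 named genes past the interaction threshold (y axis, ordered by interaction), sgDDX3 in orange above sgGal4 in grey. DDX3X moves by 1.68 with sgDDX3 and 0.11 with sgGal4, and H19 by -0.07 and 0.60.

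The persistent genes formed by far the longer list. For 1175 of the 1403 (83.7%) the 95% interval of the interaction lay within a 1.5-fold change in either direction, and for the other 228 it reached further, so that a moderate change cannot be told from none. The median size of the guide difference was 0.44 log2 on both days, 687 genes were smaller at day 14 and 716 were as large or larger, and 67 were at least 2-fold on both days. None of the 1403 passed at day 0, but only 1 of all 18287 tested genes did (0.00547%), so this tells little about persistent genes. At day 0, 853 of the 1403 had the sign of day 3, and the matching count over all genes was not taken. The number of persistent genes was 853 and 901 without sgGal4 replicate 1 and 2 of day 3, and 935 and 687 without sgGal4 replicate 1 and 2 of day 14.

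Among persistent genes raised by knockdown, ZNF628, a zinc finger gene, was at 63.5 and 64.9 CPM in sgDDX3 libraries and 21.8 and 19.1 CPM in sgGal4 libraries at day 3, and at 69.3 and 58.1 CPM with sgDDX3 and 22.0 and 21.8 CPM with sgGal4 at day 14. That was 3.09-fold and 2.91-fold, with an interaction of -0.09 (95% interval -0.38 to 0.20). RCOR2, a corepressor of the LSD1 complex, was at 22.5 and 21.8 CPM with sgDDX3 and 8.14 and 7.09 CPM with sgGal4 at day 3, and at 28.4 and 22.2 CPM with sgDDX3 and 8.56 and 7.99 CPM with sgGal4 at day 14. AMIGO1, a neuronal adhesion gene, IL18R1, an interleukin receptor gene, and MYO15B, a myosin-like gene, were higher by 1.38, 1.06 and 1.17 log2 at day 3 and by 1.13, 1.10 and 1.03 at day 14.

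Among persistent genes lowered by knockdown, TMSB4X, encoding the actin-sequestering peptide thymosin beta-4, was at 104 and 92.6 CPM in sgDDX3 libraries and 235 and 252 CPM in sgGal4 libraries at day 3, and at 100.1 and 124 CPM with sgDDX3 and 213 and 242 CPM with sgGal4 at day 14. Its processed copy TMSB4XP8 had the same pattern, and reads can be split between the 2. FCGR2A, an immunoglobulin receptor gene with close paralogues, was at 19.7 and 14.9 CPM with sgDDX3 and 46.5 and 36.1 CPM with sgGal4 at day 3, and at 12.8 and 19.1 CPM with sgDDX3 and 42.1 and 48.6 CPM with sgGal4 at day 14. TF, encoding transferrin, EFHD1, a mitochondrial calcium-binding protein gene, and BCAS3 were lower by -1.01, -0.90 and -0.89 log2 at day 3 and by -1.18, -1.05 and -0.99 at day 14. The values of the 2 guides did not overlap on either day for TMSB4X or FCGR2A.

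**Figure D3:**
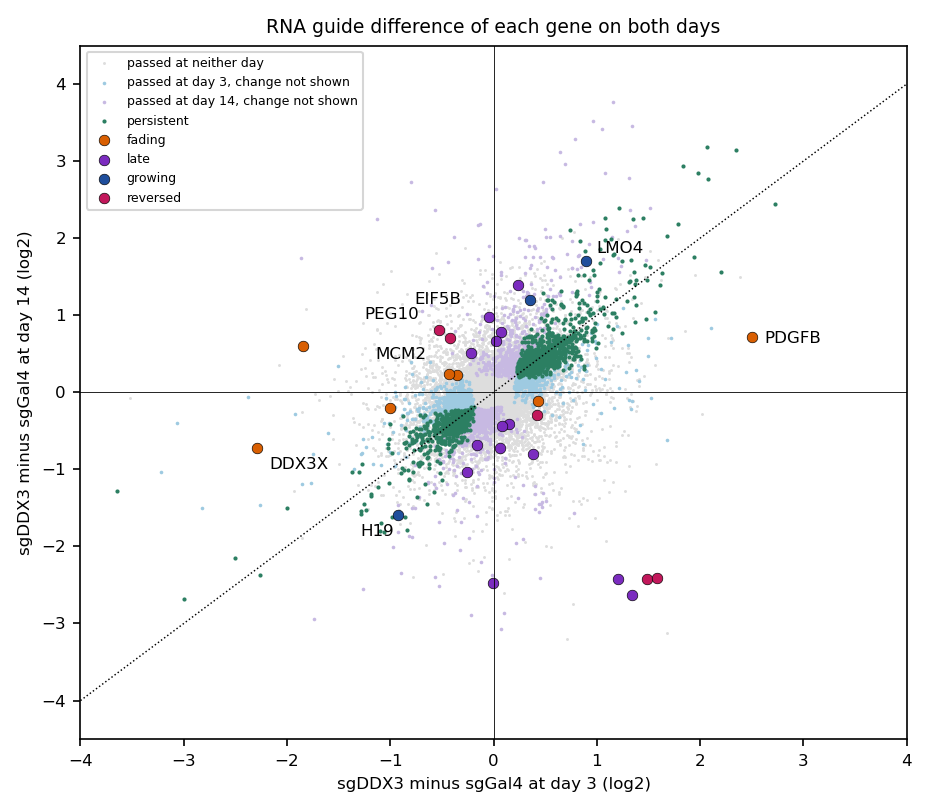
RNA guide difference, sgDDX3 minus sgGal4, of each gene at day 3 (x axis, log2) against day 14 (y axis, log2), coloured by class, with equal values on the dotted line; 1 gene lies outside the axes and 1 late gene is not drawn. DDX3X lies at -2.29 and -0.72, LMO4 at 0.90 and 1.70, and the persistent genes run along the line.

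Across genes, the guide differences of day 3 and day 14, which share no library, had a Pearson r of 0.44 and a Spearman rho of 0.48 over 18287 genes, which are not independent replicates. Of the 2574 genes that passed at day 3, 2447 (95.1%) had the same sign at day 14, and 1408 (54.7%) also passed there in that direction. Of the 2674 that passed at day 14, 2512 (93.9%) had the same sign at day 3. The median day 14 difference was 77.7% of the day 3 difference among genes that passed at day 3. The median day 3 difference was 72.0% of the day 14 difference among genes that passed at day 14, and genes chosen on 1 day tend to be larger on that day.

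Ribosome footprints gave a readout that the sorting did not use, though the labels do not say whether they came from the same lysates. Of the 30 RNA interaction genes, 29 were tested in footprints, and the footprint interaction had the sign of the RNA interaction in all 29, against 56.6% of the 14853 genes tested in both. It passed for 2 of them, DDX3X and SUPT6H, where 25 of 19780 genes passed in footprints (0.126%). At day 14, 19 of the 29 passed in footprints in the RNA direction (3.4% of all footprint genes passed at day 14 in either direction), and at day 3, 2 of the 29 did (3.8% passed at day 3 in either direction). The 29 include DDX3X, the knockdown target, and the 4 ribosomal RNA copies named above, which are not independent of each other. The shares of all genes cover interactions of any size, so they are no matched background for genes chosen by their interaction.

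Persistent genes differed in footprints by direction. Of the 505 persistent lower genes tested there, 463 (91.7%) were also lower in footprints at day 3 and 473 (93.7%) at day 14. Of the 882 persistent higher genes, 483 (54.8%) were higher in footprints at day 3 and 603 (68.4%) at day 14. Over the 14853 genes tested in both, footprints had the sign of the RNA difference for 57.8% at day 3 and 66.4% at day 14, so the shares of the higher genes lay near that background. At day 3, 67 of these 882 passed as higher in footprints and 70 passed as lower, and at day 14 the counts were 95 and 14. Of the 505 lower genes, 96 passed as lower and 0 as higher at day 3, and 90 and 1 at day 14. Over the 14853 genes, 401 passed in the direction of their RNA and 240 against it at day 3. At day 14 the counts over the 14853 genes were 522 and 56. The median footprint difference of persistent higher genes was 0.05 log2 at day 3 and 0.14 at day 14, against 0.46 and 0.45 in RNA. For persistent lower genes it was -0.26 on both days, against -0.41 and -0.42 in RNA. Footprint and RNA counts were normalised separately, and the median footprint difference over all genes tested in both was 0.01 at day 3 and -0.0027 at day 14.

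Named persistent genes differed in how far footprints followed RNA. Footprints on ZNF628 differed by -0.35 log2 at day 3 and -0.11 at day 14, with neither day passing, although its RNA was 3.09-fold and 2.91-fold higher. Footprints on RCOR2 differed by -0.14 and 0.18, again with neither day passing. On TMSB4X they were lower by -0.97 and -1.0, and both days passed. FCGR2A footprints had the opposite sign to its RNA, 0.55 at day 3 and 0.27 at day 14, and neither passed.

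**Figure D4:**
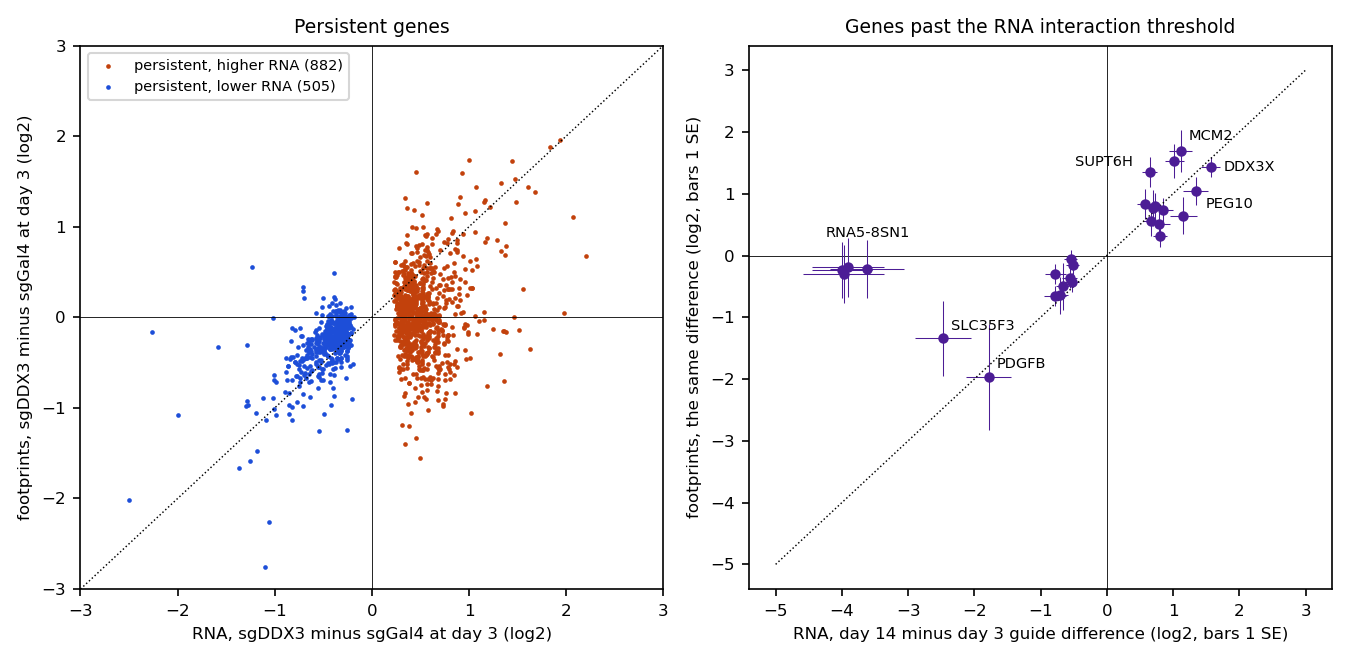
Left, footprint guide difference at day 3 (y axis, log2) against the RNA guide difference at day 3 (x axis, log2) for persistent genes, higher RNA in orange and lower RNA in blue; right, the day 14 minus day 3 change in guide difference in footprints (y axis) against RNA (x axis) for 27 named genes past the RNA threshold (log2, bars 1 SE), with dotted lines at equality. The 505 lower genes lie mostly below zero in footprints, the 882 higher genes spread on both sides, and all 27 genes on the right have the same sign in both. The 27 include DDX3X and the ribosomal RNA copies, which are not independent of each other.

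Gene groups were described by counts and medians beside those of all genes, for which the median guide difference was -0.01 log2 on each day and 6.39% were lower at day 3, 6.18% lower at day 14, 7.68% higher at day 3 and 8.44% higher at day 14. Over the 18287 genes the interaction was positive for 9235 and negative for 9052, with an unadjusted p under 0.05 for 7.91%. The lists had been chosen with results of these data known, so they carry no separate test. Replication-dependent histone genes stayed low. Of 45 tested, 39 were lower at day 3 and 34 at day 14, none was higher on either day, and 33 were persistent. Their median guide difference was -0.50 log2 at day 3 and -0.40 at day 14, and none had a passing interaction, or 1 without sgDDX3 replicate 2 of day 14. H1-2, a linker histone gene, was at 662 and 771 CPM in sgDDX3 libraries and 1142 and 1311 CPM in sgGal4 libraries at day 3, and at 953 and 934 CPM with sgDDX3 and 1351 and 1313 CPM with sgGal4 at day 14. Histone copies share sequence, so counts of single copies are uncertain. Without sgDDX3 replicate 1 or sgGal4 replicate 2 of day 3, 25 histone genes were lower at day 3.

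Genes of DNA replication and S phase were lower at day 3 and mostly near control at day 14. Of 52 tested, 32 were lower and 1 higher at day 3, and 5 were lower and 6 higher at day 14. The median guide difference was -0.33 log2 at day 3 and -0.06 at day 14. The interaction was positive for 51 of the 52, with an unadjusted p under 0.05 for 25 and a passing adjusted p for MCM2 alone in the fit with all libraries. The interaction passed, as positive, for 9 without sgDDX3 replicate 2 of day 14, 4 without sgDDX3 replicate 2 of day 3, and 3 with DESeq2 or with no low-count filter. RRM2, the small subunit of ribonucleotide reductase, was at 54.7 and 63.8 CPM with sgDDX3 and 104 and 101 CPM with sgGal4 at day 3, and at 94.0 and 85.1 CPM with sgDDX3 and 112 and 101 CPM with sgGal4 at day 14. Its interaction of 0.57 had an adjusted p of 0.055. POLA1, the catalytic subunit of the polymerase that starts new DNA strands, differed by -0.20 log2 at day 3 and by 0.41 at day 14, where it passed. Left out singly, sgDDX3 replicate 1 and sgGal4 replicate 2 of day 3 reduced the day 3 count of lower genes to 16 and 17. The day 14 count of higher genes was 3 without sgDDX3 replicate 1 or either sgGal4 library of that day. That of lower genes was 2 without sgGal4 replicate 1 or 2 of day 14, left out singly, or with the 2 days alone.

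Mitosis genes were also lower at day 3 and nearer the control at day 14. Of 37 tested, 28 were lower at day 3 and 8 at day 14, with medians of -0.35 and -0.17 log2. The interaction was positive for 36 of the 37, with an unadjusted p under 0.05 for 12, and passed for TOP2A and MKI67. It passed for none with the 2 days alone or without sgDDX3 replicate 1 of day 3, sgGal4 replicate 1 of day 3 or sgGal4 replicate 1 of day 14. ECT2, a regulator of cell cleavage, was at 30.0 and 31.6 CPM with sgDDX3 and 40.8 and 43.6 CPM with sgGal4 at day 3, and at 36.9 and 40.5 CPM with sgDDX3 and 38.1 and 41.7 CPM with sgGal4 at day 14. The day 3 count was 18 without sgGal4 replicate 1 and 16 without sgGal4 replicate 2 of day 3. The day 14 count was 0 without sgGal4 replicate 2 and 3 without sgDDX3 replicate 1 of that day.

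Genes of the integrated stress response, which the factor ATF4 switches on when amino acids are short or initiation is blocked, were lower with sgDDX3 and more so at day 14. Of 37 tested, 14 were lower at day 3 and 29 at day 14, and none was higher. The median was -0.21 log2 at day 3 and -0.55 at day 14. The interaction was negative for 34 of the 37, with an unadjusted p under 0.05 for 14, and passed for none by edgeR with adjustment in the fit with all libraries. It passed, as negative, for 21 without sgDDX3 replicate 2 of day 14 and for 5 with no low-count filter. SLC6A9, a glycine transporter gene, was at 64.7 and 57.3 CPM with sgDDX3 and 69.4 and 67.7 CPM with sgGal4 at day 3, and at 41.8 and 47.8 CPM with sgDDX3 and 68.4 and 71.3 CPM with sgGal4 at day 14. SLC7A5, a subunit of the large neutral amino acid transporter, was at 673 and 640.2 CPM with sgDDX3 and 695 and 693 CPM with sgGal4 at day 3, and at 459 and 548 CPM with sgDDX3 and 720.2 and 689 CPM with sgGal4 at day 14. The median at day 14 was -0.74 log2 in 1 sgDDX3 library and -0.36 in the other, so the size rests on which is read. The day 3 count was 5 without sgGal4 replicate 1 of day 3 and 8 without sgDDX3 replicate 2. Cytosolic tRNA synthetase genes, many of them ATF4 targets, were lower for 9 of 20 at day 3 and 11 of 20 at day 14, and 6 of 20 at day 14 without sgGal4 replicate 2 of that day. The day 3 count was 4 without sgGal4 replicate 1 or sgDDX3 replicate 2 of day 3 and 5 without sgGal4 replicate 2.

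Ribosomal protein genes were near the control at day 3 and slightly below it at day 14. Of 78 tested, 2 were higher at day 3 and 22 lower at day 14, with medians of 0.04 and -0.16 log2. The interaction was negative for 77 of the 78 and passed for none after adjustment in the fit with all libraries, with an unadjusted p under 0.05 for 28. It passed, as negative, for 28 without sgDDX3 replicate 2 of day 14 and for 3 with no low-count filter. RPL34 was at 526 and 500.5 CPM with sgDDX3 and 469.9 and 529 CPM with sgGal4 at day 3, and at 347 and 412 CPM with sgDDX3 and 458 and 491 CPM with sgGal4 at day 14. The day 3 count was 0 without sgDDX3 replicate 1 or sgGal4 replicate 1 of day 3 and 6 without sgDDX3 replicate 1 or 2 of day 14. The day 14 count depended on single libraries. It was 46 without sgDDX3 replicate 2, 14 without sgDDX3 replicate 1, 9 without sgGal4 replicate 1 and 3 without sgGal4 replicate 2 of day 14, 37 with no low-count filter and 10 with the 2 days alone. Of 38 initiation factor genes, 5 were higher and 6 lower at day 3, and 5 were higher and 13 lower at day 14, and EIF5B alone had a passing interaction in the fit with all libraries. Without sgDDX3 replicate 2 of day 14, 5 had a passing negative interaction. Their day 14 count of lower genes was 4 to 8 without sgDDX3 replicate 1 or either sgGal4 library of day 14. Their day 3 count of lower genes was 2 without sgGal4 replicate 2 of day 3, 3 without sgGal4 replicate 1 of day 14, and 10 and 12 without sgDDX3 replicate 1 and 2 of day 14.

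Interferon-response genes were among the higher genes of day 14. Of 32 genes listed, 21 had enough counts to be tested. Of these, 3 were higher at day 3 and 10 at day 14, none was lower, and the medians were 0.17 and 0.44 log2. At day 0 the median guide difference of the same genes was also 0.17. OAS3, a sensor of double-stranded RNA, was at 1.79 and 0.789 CPM in sgDDX3 libraries and 0.866 and 0.242 CPM in sgGal4 libraries at day 3, where the groups overlapped. At day 14 OAS3 was at 9 and 9.59 CPM with sgDDX3 and 0.962 and 0.822 CPM with sgGal4. Its guide difference at day 14 was 3.42 log2, and the interaction of 2.36 had an adjusted p of 0.083. The interaction was positive for 14 of the 21 tested genes and negative for 7. No tested interferon gene had a passing interaction by edgeR in the fit with all libraries. An unadjusted p under 0.05 was found for 6, of which 5 were positive and 1 negative. The interaction of OAS3 passed with no low-count filter, without sgDDX3 replicate 2 of day 14 and without sgGal4 replicate 2 of day 3, and ranged from 0.86 to 3.25 over the alternatives. The day 3 count was 1 without sgGal4 replicate 2 of day 3. The day 14 count was 5 without sgDDX3 replicate 1, 5 without sgGal4 replicate 1 and 4 without sgGal4 replicate 2 of that day.

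Immediate early genes, which respond within minutes to growth signals, were at a higher level at day 14 with both guides. Of 26 tested, 2 were higher and 5 lower at day 3, and 1 was higher and 11 lower at day 14. The median change between day 14 and day 3 was 0.25 log2 with sgDDX3 and 0.40 with sgGal4, against -0.01 for all genes with each guide. IER3 was at 9.22 and 12.9 CPM with sgDDX3 and 9.39 and 8.62 CPM with sgGal4 at day 3, and at 18 and 17.7 CPM with sgDDX3 and 26.1 and 23.9 CPM with sgGal4 at day 14. EGR3 was at 3.50 and 3.55 CPM with sgDDX3 and 2.46 and 1.61 CPM with sgGal4 at day 3, and at 5.52 and 4.79 CPM with sgDDX3 and 8.56 and 7.53 CPM with sgGal4 at day 14, with an interaction of -1.29 (adjusted p = 0.089). The count of lower genes at day 3 was 8 without sgDDX3 replicate 1 or 2 of day 14, left out singly, and that of higher genes was 1 without any single library of day 3 or sgGal4 library of day 14. The count of lower genes at day 14 was 6 without sgDDX3 replicate 1, 5 without sgGal4 replicate 1 and 7 without sgGal4 replicate 2 of that day.

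Proteasome genes were lower for 16 of 31 at day 3 and 9 of 31 at day 14, with medians of -0.25 and -0.21 log2 and no passing interaction. The day 3 count was 8 without sgDDX3 replicate 1, 10 without sgGal4 replicate 1 and 5 without sgGal4 replicate 2 of that day, and the day 14 count was 3 and 2 without sgGal4 replicate 1 and 2. Of 40 RNA helicase genes other than DDX3X, 3 were higher and 4 lower at day 3, and 8 were higher and none lower at day 14. DHX9, which unwinds double-stranded RNA, was at 168 and 178 CPM with sgDDX3 and 178 and 177 CPM with sgGal4 at day 3, and at 229 and 248 CPM with sgDDX3 and 186 and 187 CPM with sgGal4 at day 14. The day 14 count of higher helicases was 2 without sgGal4 replicate 1 and 4 without sgGal4 replicate 2 or sgDDX3 replicate 1. None was lower at day 3 without sgDDX3 replicate 1 or sgGal4 replicate 2 of day 3. Of 24 Wnt pathway genes, 8 were higher at day 3 and 6 at day 14, none was lower, and 6 were persistent. Without sgGal4 replicate 1 of day 3, 5 were higher at that day.

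**Figure D5:**
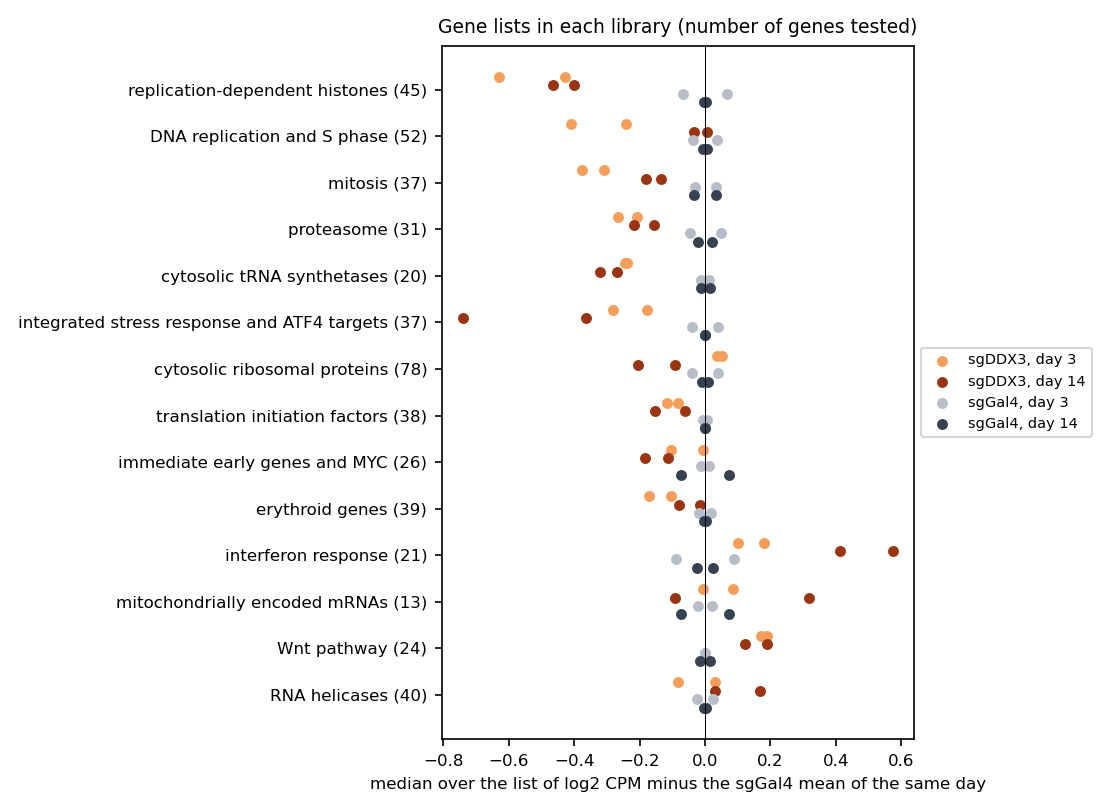
Median over each gene list of log2 CPM minus the sgGal4 mean of the same day (x axis), 1 point per library, with lists down the page and the number of genes tested in brackets; sgDDX3 libraries in orange shades above sgGal4 libraries in grey shades. The S-phase list lies below zero in sgDDX3 libraries at day 3 and near zero at day 14, and the stress-response list lies further below zero at day 14 than at day 3 in both sgDDX3 libraries.

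The erythroid identity of the cells was checked with 45 erythroid genes, all detected and 7 of them below 1 CPM, whose summed level was 4317 to 4339 CPM in sgDDX3 and 4367 to 4489 CPM in sgGal4 libraries at day 3, and 4412 to 4456 CPM with sgDDX3 and 4315 to 4360 CPM with sgGal4 at day 14. Of 39 tested, 12 were lower and 3 higher at day 3, and 10 were lower and 7 higher at day 14. The day 14 count of higher genes was 4 and 3 without sgGal4 replicate 1 and 2 of that day. KLF1, the erythroid transcription factor, was at 43.4 and 47.8 CPM with sgDDX3 and 64.3 and 69.6 CPM with sgGal4 at day 3, and at 69.9 and 52.6 CPM with sgDDX3 and 64.9 and 63.6 CPM with sgGal4 at day 14. Of 7 fibroblast and epithelial markers, 1 was at 0 in every RNA library and 4 were below 1 CPM, and the summed level was 160 to 167 CPM with sgDDX3 and 197 to 199 CPM with sgGal4 at day 3, and 168 to 176 CPM with sgDDX3 and 215 to 217 CPM with sgGal4 at day 14. Of 12 myeloid markers, 1 was at 0 throughout and 5 were below 1 CPM, and their sum was 189 to 225 CPM with sgDDX3 and 238.5 to 284 CPM with sgGal4 at day 3, and 179.5 to 205 CPM with sgDDX3 and 257 to 278 CPM with sgGal4 at day 14. Of 10 lymphoid markers, 2 were at 0 throughout and 7 were below 1 CPM, and their sum was 39.6 to 41.6 CPM with sgDDX3 and 46.6 to 50.8 CPM with sgGal4 at day 3, and 41.7 to 45.3 CPM with sgDDX3 and 54.5 to 56.3 CPM with sgGal4 at day 14. Of 14 megakaryocytic markers, 5 were at 0 throughout and 9 were below 1 CPM, and their sum was 311 to 324 CPM with sgDDX3 and 309 to 322 CPM with sgGal4 at day 3, and 283 to 294 CPM with sgDDX3 and 315 to 316 CPM with sgGal4 at day 14. The summed fibroblast and epithelial, myeloid and lymphoid levels were lower with sgDDX3 on both days without overlap, and the megakaryocytic level at day 14. The matching share of all genes was not counted. Few tested markers passed as lower: 2 of 7 myeloid and 1 of 4 lymphoid on each day, and 0 of 5 megakaryocytic. Of 5 fibroblast and epithelial markers, 1 passed as lower at day 3 and 2 at day 14. FCGR2A, named above, is in the myeloid list, so that sum includes its fall. At day 0 the fibroblast and epithelial sum was already lower with sgDDX3 (167.5 to 167.7 against 176 to 180.3 CPM with sgGal4). The lymphoid sum was too (45.2 to 48.3 against 50.8 to 52.0 CPM). The myeloid sum was higher with sgDDX3 at day 0 (219.7 to 224.1 against 211 to 217.5 CPM), as was the megakaryocytic sum (291.4 to 300.1 against 285.4 to 288 CPM). The part of these cell type markers in the persistent lower and late lower genes was not tested.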

How the data were processed

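RNA and ribosome footprints were measured in 24 samples, and the authors deposited tables of raw counts per gene for each assay. Per the labels' protocols, RNA came from cytosolic lysate, was depleted of ribosomal RNA and was made into directional libraries. Per the submitters' processing notes, the tools included cutadapt 3.4, Bowtie2 2.4.1, STAR 2.7.5a and DESeq2, with build GRCh38. No source used here gives the counting tool, the annotation or the strand setting, so genes that overlap on opposite strands may share reads.

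From 58037 genes in the RNA table, 45 pseudoautosomal Y copies were left out. Gene names came from the reference tables and matched 71.5% of IDs. Genes passing edgeR's filterByExpr with a minimum count of 10 were kept. Counts were scaled by TMM, and edgeR 4.0.16 (R 4.3.3) fitted 6 groups of 2 libraries with quasi-likelihood, on all 12 RNA libraries so that they share 1 estimate of the spread. Adjusted p-values are Benjamini-Hochberg values over all genes tested, and SE is the size of the log2 difference divided by the square root of its F statistic. CPM values are TMM-scaled. DESeq2 1.42.0 was an alternative. The classes need an adjusted p under 0.05, and intervals are 95%. The fit was tested on simulated data with the same spread in every group, which cannot show how it does with unequal spreads.

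Counts per library ran from 10266619 to 43256563 in the 8 RNA libraries, so that 3 counts are 0.0694 to 0.292 CPM, and from 6223963 to 11400374 in the matching footprint libraries. The typical SE of the interaction was 0.19 log2, against 0.13 for the day 3 difference. Replicates differed by more than counting noise in every group (chi-square per degree of freedom 2.21 to 9.60). The value was 9.60 for sgDDX3 at day 14 and 5.01 for sgDDX3 at day 3. For sgGal4 it was 3.12 at day 14 and 3.26 at day 3. The fit shares its estimate of the spread over all groups, so its p-values may understate the spread of the sgDDX3 groups.

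Same-numbered libraries deviated together in 4 of 15 pairs of groups, with correlations of -0.48 to 0.36, so the numbers were not taken as pairing.

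Apart from the genes given at the end, named genes averaged at least 10 CPM and had a gene symbol. They were DDX3X, genes past the interaction threshold ranked within their class by size, the persistent genes ranked by the smaller of the 2 days' differences (up to 6 in each direction), and up to 4 genes of each list with the smallest interaction p. Genes past the threshold were also taken by interaction size where the 2 guides' values did not overlap on the day of the larger difference. Lack of overlap is read from the same libraries as the tests and is no separate support for a gene. Y-linked genes and a few others that the rule would name are not reported here. The members and the lists were chosen with earlier results of these data known. The interaction genes under 10 CPM, OAS3, EGR3 and SELPLG were named after their values were seen.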

Additional observations from a re-analysis of the deposited data

Results flagged for a closer look

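The genes below are listed because their guide difference in RNA differed between day 14 and day 3 by the test of that difference (edgeR interaction, adjusted p under 0.05). Groups of 2 libraries are too small for a test of single outlying samples. Positive values are higher at day 14 relative to day 3. Among fading genes the value was 1.57 log2 for DDX3X, 2.45 for OR2W6P, 0.80 for PCAT14, 0.67 for TOP2A and 0.57 for MKI67, and -1.78 for PDGFB and -0.55 for PLXNA1. Among reversed genes it was 1.34 for PEG10 and 1.12 for MCM2, and -0.71 for CLIP2, -3.91 for RNA5-8SN3 and -4.0 for RNA5-8SN1.

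Among late genes that were higher at day 14 it was 1.16 log2 for SNHG12, 1.02 for EIF5B, 0.73 for ATAD2, 0.70 for CKAP5 and 0.65 for SUPT6H. Among late genes that were lower it was -3.97 for RNA5-8SN2, -3.62 for 5_8S_rRNA, -2.48 for SLC35F3, -0.78 for FLT1, -0.78 for EHD2, -0.56 for ITGA5, -0.53 for CTSH and -0.51 for MEX3B. Among growing genes it was 0.84 log2 for HLA-C and 0.81 for LMO4, and -0.67 for H19.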

How the results depend on the processing

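The interaction of DDX3X kept its sign and its call under every alternative run, between 1.35 and 1.75 log2 with single libraries left out. The number of genes that passed the interaction was 30, and 119 with no low-count filter, 13 with the day 3 and day 14 libraries alone, 32 with DESeq2's size factors, 40 with DESeq2 and 10 to 339 with single libraries left out. It was 22 with a replicate block, of which 20 were among the 30, and the replicate numbers were not shown to pair the libraries. Of the 30 calls, 7 held in all 13 alternatives. Fading genes numbered 7, and 13 with DESeq2, 26 with no filter, 2 with the 2 days alone, 4 at 1.5-fold or more and 1 to 64 with single libraries left out. Late genes numbered 15, and 66 with no filter, 5 with the 2 days alone and 5 to 218 with single libraries left out. Persistent genes numbered 687 to 1560 with single libraries left out, genes that passed at day 3 numbered 1342 to 3460, and at day 14 1076 to 3201. The change with sgDDX3 passed for 459 genes with the 2 days alone and 140 to 2300 with single libraries left out, and that with sgGal4 for 244 with no filter and 65 to 355. The footprint interaction passed for 39 genes with DESeq2's size factors, 81 with DESeq2, 471 with no filter, 59 with the replicate block and 17 to 147 with single libraries left out. VIM at day 14 differed by 0.04 log2, by -0.23 without sgDDX3 replicate 2 of that day and by 0.26 without sgDDX3 replicate 1. The cause of these shifts was not tested. A group with 1 library left is assumed to vary like the others, and such fits test more genes. With 2 libraries per group a gene whose change between the days was not shown may still have changed.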
